A study of Mus musculus with 12 samples.

Results

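In the livers of obese, steatotic mice, 10 genes that Wnt signalling keeps on around the central vein were followed: Glul, Oat, Axin2, Lgr5, Slc1a2, Rhbg, Tbx3, Lhpp, Rnf43 and Znrf3. They were found by matching the transcript IDs of the deposited table to the symbols of GENCODE M21, and all 10 were among its 13267 genes. Liver RNA came from 12 C57BL/6 mice made obese and steatotic with a high-fat diet (HFD), which both groups share. For 6 weeks, 6 mice carried a subcutaneous pellet of 4-hydroxyphenylacetic acid (4-HPAA), which gut microbes release from plant polyphenols, and 6 mice carried the scaffold control. The study compared liver transcription between these 2 groups. The sources used here state neither sex nor age. Samples are numbered 1 to 6 within a group without further origin, so each was taken as 1 mouse, and the p-values speak to the spread among these samples. The selection rule used no expression value, but the genes were proposed with earlier results of these data known.

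Hepatocytes divide their work along the path of blood from the portal vein to the central vein. Endothelial cells of the central vein release Wnt ligands and R-spondin 3, which stabilise beta-catenin in the hepatocytes next to them. Beta-catenin with a TCF/LEF factor then switches on a set of genes in a narrow pericentral ring. Some of its products capture the ammonia and glutamate that escape the periportal urea cycle, and others, such as Axin2, Rnf43 and Znrf3, damp the Wnt signal that induced them. Bulk liver RNA averages over the whole lobule, so fewer pericentral cells and less of a transcript in each of them cannot be told apart.

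The libraries had similar depth. Deposited values, read counts normalised by library, summed to between 22869813 and 25255447 per library, from an estimated 22389551 to 26924668 reads. Each row of the table carries 1 transcript ID per gene, such as ENSMUST00000152909 for Axin2. The IDs in the Glul and Rnf43 rows belong to transcripts annotated as non-coding. Every row was taken as the value of its whole gene, which the sources do not state. Coordinates here are the gene spans of GENCODE M21 on GRCm38. 4-HPAA replicate 3 stood apart on the second principal component of all genes (20.6% of the variance), at −56.45 against −7.52 to 17.03 in the other 11 libraries. All 10 hepatocyte markers were measured, and albumin (Alb) alone took 4.98 to 7.58% of the total in 4-HPAA livers and 7.59 to 8.72% in controls. Of the 10, 7 had positive log2 differences (4-HPAA minus control), against 49.8% of all genes. Alb was among the 3 with negative ones.

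RefSeq promoter windows (GRCm38.p6), 250 bases before to 50 after a transcript start, were at hand for 5 of the 10 genes, Glul, Oat, Axin2, Slc1a2 and Rnf43, the last with 2 windows. They were searched on both strands for CTTTGA, the core of the TCF/LEF recognition sequence, and for its longer form CTTTGAT, which overlaps it. Of 32851 mouse windows of the same length, 16% held CTTTGA and 3.73% held CTTTGAT. Among the 6 windows here, 1 held either, that of Slc1a2. It is printed with the windows of Glul, the classical pericentral marker, and Axin2, the common pathway readout, so that the window with the motif can be set beside 2 without it. Capitals mark CTTTGA or its reverse complement TCAAAG, and all 3 windows lie on the plus strand, at chr2:102706188-102706487, chr1:153899679-153899978 and chr11:108920099-108920398.
Slc1a2: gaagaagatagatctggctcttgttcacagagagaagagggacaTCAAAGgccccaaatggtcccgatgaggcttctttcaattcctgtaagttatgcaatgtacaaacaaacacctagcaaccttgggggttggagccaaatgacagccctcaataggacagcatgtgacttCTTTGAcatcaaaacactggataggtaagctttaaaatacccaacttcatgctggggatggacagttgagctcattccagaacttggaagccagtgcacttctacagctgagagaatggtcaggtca
Glul: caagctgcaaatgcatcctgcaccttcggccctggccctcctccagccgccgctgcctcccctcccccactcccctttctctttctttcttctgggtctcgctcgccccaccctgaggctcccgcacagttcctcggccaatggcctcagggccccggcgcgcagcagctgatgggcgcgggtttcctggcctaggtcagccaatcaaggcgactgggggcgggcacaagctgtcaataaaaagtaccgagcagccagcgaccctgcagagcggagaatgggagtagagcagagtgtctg
Axin2: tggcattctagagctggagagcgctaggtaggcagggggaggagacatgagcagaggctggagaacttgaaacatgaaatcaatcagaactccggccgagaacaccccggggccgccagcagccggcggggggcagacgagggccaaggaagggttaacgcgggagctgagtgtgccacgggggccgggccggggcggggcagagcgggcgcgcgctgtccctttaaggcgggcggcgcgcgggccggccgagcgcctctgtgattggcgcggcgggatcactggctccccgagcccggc
In the Slc1a2 window, 1 match began 206 bases before the start and read TCAAAG, as part of the longer CTTTGAT on the other strand. The other began 77 bases before the start and read CTTTGA. This Slc1a2 start lies 47779 bases inside the gene as GENCODE draws it. The Glul and Axin2 windows were GC-rich, at 64.3% and 70% GC, against 45.7% for Slc1a2 and a median of 52.7% over all windows. These letters describe the windows only and show no bound factor. A window without the motif says nothing about sites elsewhere in or near the gene.

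No gene of the set differed between 4-HPAA and control livers beyond the threshold over all genes. Of the 10 genes, 0 had a Benjamini-Hochberg adjusted p under 0.05 in limma's moderated test on log2(value + 1), as did 0% of the 12720 genes tested. At an unadjusted p under 0.05 there was 1 of the 10, Tbx3, where 14.8% of all genes had one, 7.26% higher and 7.56% lower in 4-HPAA livers. Log2 differences (4-HPAA minus control) were positive for 8 of the 10 genes, against 49.8% of all genes, with a median of 0.18 against 0.00 over all genes. In no member did the groups separate fully, which 0.66% of all genes did. Adjusted p-values stayed above 0.05 for all 10 genes under each of 23 alternative settings, the lowest being 0.132 for Lhpp with array weights.

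**Figure D1:**
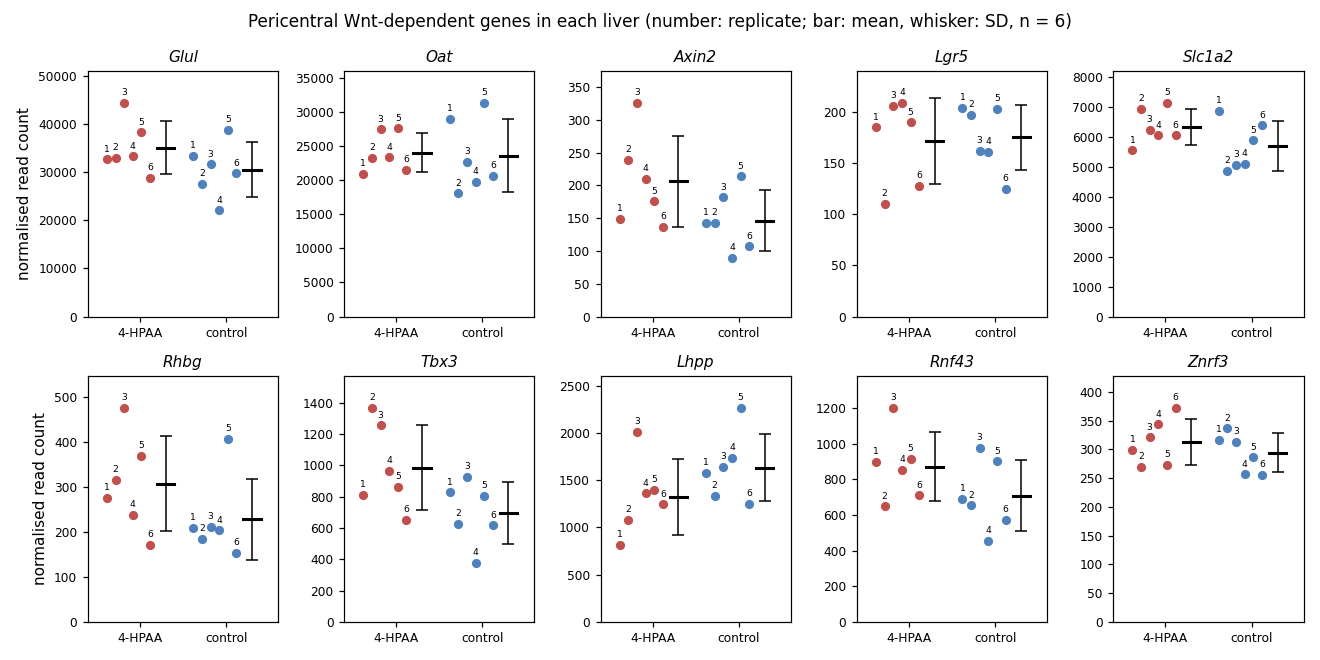
Normalised read count of each of the 10 genes (vertical axis, from 0) in the 6 4-HPAA livers (red) and the 6 control livers (blue), numbered by replicate, with the mean and SD beside them. The groups overlap in every panel, and 4-HPAA replicate 3 and control replicate 5 are often the highest of their group.

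Glul encodes glutamine synthetase, which joins ammonia to glutamate and is the classical marker of the pericentral ring (chr1:153899944-153909723, plus strand). Its normalised read count was 28783 at the lowest, 33163 at the median and 44407 at the highest in 4-HPAA livers, against 22091, 30698.5 and 38828 in controls. Only replicate 3 of the 4-HPAA livers exceeded all controls, and control replicate 4 was the lowest of all 12. The log2 difference was 0.21 ± 0.13 (SE), with a 95% interval of −0.07 to 0.49 (limma, adjusted p = 0.482; exact permutation test, two-sided, p = 0.182), and 5 of 6 4-HPAA livers lay above the control mean. It was 0.12 without control replicate 4, 0.14 without 4-HPAA replicate 3 and 0.085 with quantile normalization. It rose to 0.28 without control replicate 5, at an unadjusted p of 0.0425 and an adjusted p of 0.392 (limma).

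Oat encodes ornithine aminotransferase, a mitochondrial enzyme that passes the amino group of ornithine on towards glutamate (chr7:132557478-132576398, minus strand). Its normalised read count was 20898, 23269.5 and 27574 (lowest, median, highest) in 4-HPAA livers, against 18027, 21660 and 31296 in controls. All 6 4-HPAA livers thus lay within the control range, and control replicates 5 and 1 were the 2 highest of all. The difference was 0.05 ± 0.13 with an interval of −0.24 to 0.33 (limma, adjusted p = 0.904), and its sign turned with quantile normalization or without control replicate 2.

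Slc1a2 encodes a sodium-driven transporter that takes up glutamate, the substrate of glutamine synthetase (chr2:102658659-102790784, plus strand). It stood at 5553, 6152.5 and 7142 in 4-HPAA livers and at 4861, 5494 and 6882 in controls. Replicates 5 and 2 of the 4-HPAA livers exceeded all controls, and control replicates 2, 3 and 4 lay under every 4-HPAA liver. The difference was 0.16 ± 0.10 with an interval of −0.05 to 0.37 (limma, adjusted p = 0.474).

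Rhbg, a membrane channel for ammonia, was more variable (chr3:88242874-88254709, minus strand). It stood at 171, 295 and 475 in 4-HPAA livers and at 154, 206 and 406 in controls. Replicate 3 of the 4-HPAA livers, at 475, was the only one above all controls. Control replicate 5, at 406, lay far from the other controls at 154 to 211, and without it the log2 difference of 0.43 ± 0.25 became 0.61, at an unadjusted p of 0.014 and an adjusted p of 0.311 (limma). It was 0.29 without 4-HPAA replicate 3, at an unadjusted p of 0.253. Over all 12 livers the interval ran from −0.11 to 0.97 (limma, adjusted p = 0.448). The annotation places another gene, Gm38392, on the same strand over Rhbg, and how reads shared by these overlapping genes were assigned is not known.

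Lhpp, a phosphatase that acts on phosphorylated histidine, was the member with the most negative difference (chr7:132610638-132706420, plus strand). It stood at 817, 1302.5 and 2010 in 4-HPAA livers and at 1251, 1608.5 and 2262 in controls. Replicates 1, 2 and 6 of the 4-HPAA livers lay below all controls, while replicate 3 was the second highest of the 12. The difference was −0.34 ± 0.19 with an interval of −0.74 to 0.07 (limma, adjusted p = 0.432). Without 4-HPAA replicate 3 it was −0.47, at an unadjusted p of 0.0145 and an adjusted p of 0.176 (limma), and without 4-HPAA replicate 1, the lowest liver, it was −0.21, at an unadjusted p of 0.241. Lhpp and Oat are neighbours on chromosome 7, 34239 bases apart with 2 annotated genes between them, and lie on opposite strands. The annotation also places Fgfr2, in the table at a mean of 591, over both genes, on the strand of Oat. How reads shared with it were assigned is not known.

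Among the genes that Wnt signalling induces to restrain itself, Axin2 encodes a scaffold of the complex that destroys beta-catenin, and its transcription is a common readout of the pathway (chr11:108920349-108950783, plus strand). Its normalised read count was 137, 193 and 326 in 4-HPAA livers and 90, 143 and 214 in controls. Replicates 3 and 2 of the 4-HPAA livers exceeded all controls, and control replicates 4 and 6 lay under every 4-HPAA liver. The difference was 0.49 ± 0.24 with an interval of −0.02 to 0.99 (limma, adjusted p = 0.356; exact permutation test, two-sided, p = 0.102). Without 4-HPAA replicate 3 it was 0.34 (limma, adjusted p = 0.393). It rose to 0.61 without control replicate 5, at an unadjusted p of 0.0216 and an adjusted p of 0.33 (limma).

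Rnf43 and Znrf3 encode related membrane ubiquitin ligases that remove Frizzled receptors from the cell surface. Rnf43 (chr11:87662722-87735539, plus strand) stood at 648, 876 and 1199 in 4-HPAA livers and at 454, 672 and 977 in controls. Only replicate 3 of the 4-HPAA livers exceeded all controls, and the difference was 0.32 ± 0.19 with an interval of −0.08 to 0.72 (limma, adjusted p = 0.448). Without control replicate 4, the lowest liver, it was 0.20. It rose to 0.42 without control replicate 3, at an unadjusted p of 0.0355 and an adjusted p of 0.352 (limma). Znrf3 (chr11:5276324-5444847, minus strand) stood at 270, 310 and 372 in 4-HPAA livers and at 256, 299.5 and 337 in controls. Replicates 4 and 6 of the 4-HPAA livers exceeded all controls, and control replicates 4 and 6 lay under every 4-HPAA liver. Its difference was the closest to 0 after those of Oat and Lgr5, 0.09 ± 0.11, with an interval of −0.14 to 0.31 (limma, adjusted p = 0.745).

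Lgr5, a receptor for R-spondins that protects Wnt receptors from these ligases, overlapped widely between the groups (chr10:115450311-115587780, minus strand). It stood at 110, 187.5 and 209 in 4-HPAA livers and at 125, 179.5 and 204 in controls. The lowest and the highest of all 12 values were both in 4-HPAA livers, replicates 2 and 4. The difference was −0.05 ± 0.18 with an interval of −0.44 to 0.33 (limma, adjusted p = 0.92), and its sign turned without 4-HPAA replicate 2 or 6.

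Tbx3, a T-box transcription factor that beta-catenin induces in liver, had the largest difference of the 10 (chr5:119670669-119684724, plus strand). It stood at 654, 914.5 and 1367 in 4-HPAA livers and at 379, 714.5 and 928 in controls. Replicates 2, 3 and 4 of the 4-HPAA livers exceeded all controls, and control replicates 4, 6 and 2 lay under every 4-HPAA liver. The difference was 0.51 ± 0.22 with an interval of 0.04 to 0.99 (limma, unadjusted p = 0.0363, adjusted p = 0.302; exact permutation test, two-sided, p = 0.0606). Without 4-HPAA replicate 3 it was 0.43, at an unadjusted p of 0.0952 (limma). It rose to 0.62 without 4-HPAA replicate 6, at an unadjusted p of 0.0138 and an adjusted p of 0.197 (limma). The antisense gene Tbx3os1 overlaps Tbx3 and was in the table at a mean of 428, and whether the authors counted by strand is not stated, so reads of the pair cannot be told apart.

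**Figure D2:**
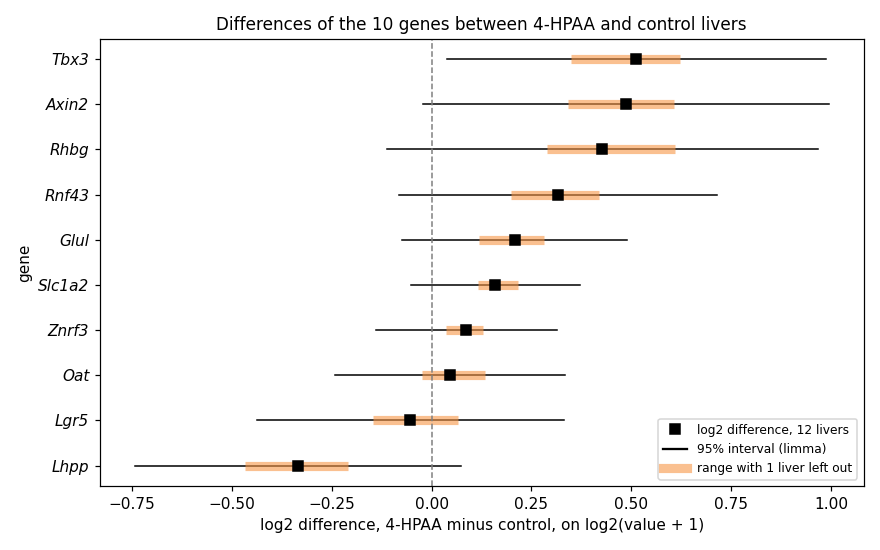
Log2 difference, 4-HPAA minus control, of each of the 10 genes (squares) on the log2(value + 1) scale, with limma's 95% interval (black line) and the range over the 12 fits that each leave out 1 liver (orange). The interval of Tbx3, 0.04 to 0.99, is the only one that excludes 0, and it is not adjusted for the 12720 genes tested.

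On a scale corrected for length, the normalised read count per kilobase of annotated exon and per 1000000 of library total, Oat and Glul stood far above the other members. Glul averaged 424 ± 67.9 in 4-HPAA livers and 378 ± 78.5 in controls, and Oat 408 ± 50.1 in 4-HPAA livers and 411 ± 103 in controls (SD, n = 6 each), so the order of these 2 genes differed between the groups by less than their spread. Lhpp followed at 21.9 ± 6.86 in 4-HPAA livers and 27.9 ± 7.21 in controls, and Slc1a2 at 19.4 ± 1.76 in 4-HPAA livers and 17.8 ± 2.59 in controls. Rhbg, Tbx3 and Rnf43 came next, at 6.37, 5.98 and 5.33 in 4-HPAA livers and 4.88, 4.31 and 4.43 in controls, with SDs of 1.21 to 2.22. Znrf3 at 1.59 ± 0.222, Axin2 at 1.51 ± 0.520 and Lgr5 at 0.671 ± 0.167 in 4-HPAA livers were the lowest, against 1.53 ± 0.148, 1.10 ± 0.372 and 0.701 ± 0.130 in controls. These levels use all annotated exons of a gene, since the files do not say which exons were counted.

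For each of the 10 genes, the fold between the highest and the lowest liver of either group exceeded the fold between the group means. The highest of the 12 livers exceeded the lowest by 3.62-fold for Axin2, 3.61-fold for Tbx3 and 3.08-fold for Rhbg, but only by 1.45-fold for Znrf3 and 1.47-fold for Slc1a2. Measured against the control mean of each gene on the log2 scale, the median over the 10 genes was 0.44 in 4-HPAA replicate 3 and 0.33 in replicate 5, but −0.05 in replicate 6. In controls it was 0.38 in replicate 5, and −0.23 and −0.21 in replicates 6 and 4. 4-HPAA replicate 3 had all 10 genes above the control mean, and control replicate 5 had 9, whereas control replicates 4 and 6 had 1 each. Control replicate 5 was the most deeply read library, with an estimated 26924668 reads, and 4-HPAA replicate 3 is the library that stood apart over all genes. Their part in these levels was not tested.

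**Figure D3:**
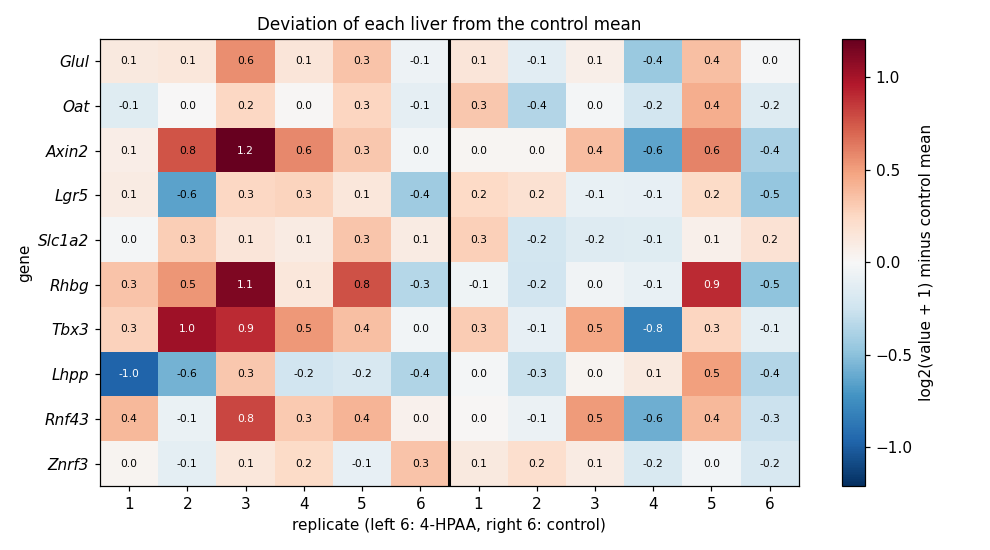
Log2(value + 1) of each gene in each liver minus the mean of the 6 controls for that gene (colour and number), with the 6 4-HPAA livers left of the line and the 6 control livers right of it. Columns 3 of 4-HPAA and 5 of control are mostly red, and column 4 of control is mostly blue.

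Several of the 10 genes went up and down together from liver to liver. With each gene centred on its group mean, Pearson's r over the 12 livers was 0.87 between Axin2 and Tbx3, 0.83 between Glul and Rnf43, 0.82 between Glul and Oat, and 0.81 between Glul and Axin2, with Spearman's rho of 0.89, 0.76, 0.89 and 0.73. Of the 45 pairs, 21 (46.7%) had an r over 0.5, as did 14.8% of all pairs among 9591 genes with a mean value of at least 100. Without 4-HPAA replicate 3 and control replicate 5, a check chosen after seeing the values, 9 pairs (20%) had one, against 13.6% of all pairs. Axin2 with Tbx3 then had an r of 0.92, Glul with Oat 0.72, Glul with Rnf43 0.71 and Glul with Axin2 0.62. For Lhpp, r with Glul was 0.54 over 12 livers and 0.00 without them. Znrf3 had an r of 0.01 with Glul and −0.08 with Oat, and Lgr5 one of 0.47 with Glul and −0.15 with Slc1a2. All of these values share the libraries, their depth and their normalisation, and are given as a description.

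**Figure D4:**
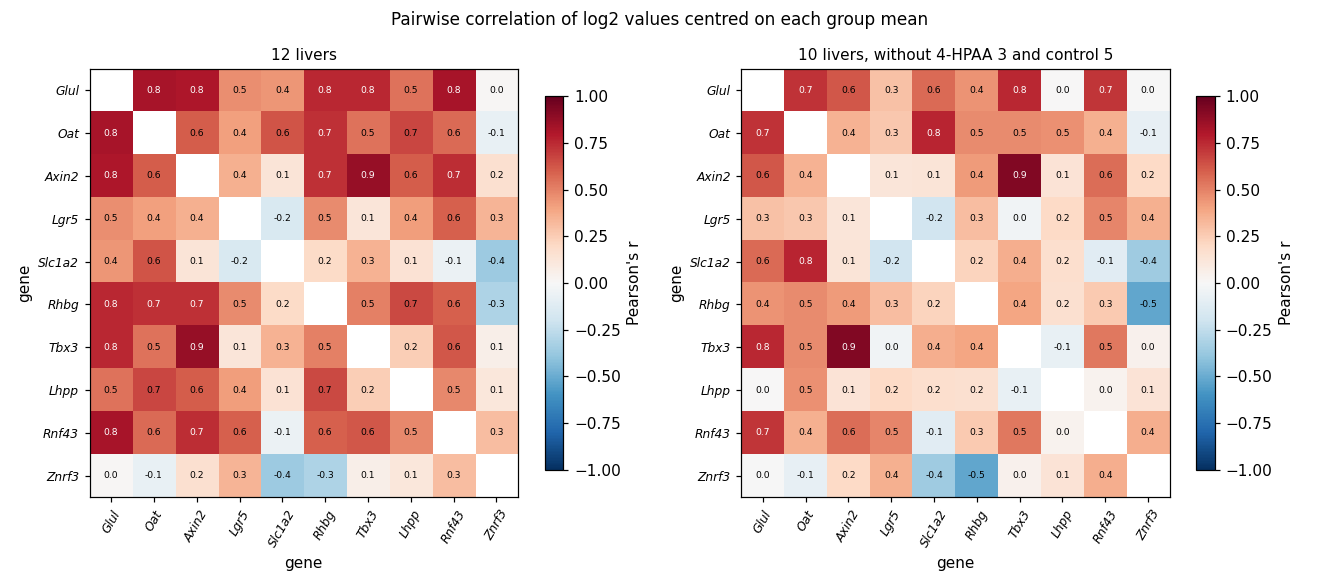
Pearson's r between each 2 of the 10 genes, from log2(value + 1) centred on each group mean, over all 12 livers (left) and over the 10 livers without 4-HPAA replicate 3 and control replicate 5 (right). Glul, Oat, Axin2, Rhbg, Tbx3 and Rnf43 are red with each other on the left, and fewer of these pairs remain strongly red on the right.

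Among 9540 other genes with a mean value of at least 100, those most like Glul over the 12 livers were Tubg1 (r = 0.93), Med24 (0.91) and Mmab (0.90). Most like Axin2 were Gapdh (r = 0.94), Lyrm9 (0.92) and Prkag1 (0.90). Most like Lgr5 were Hspb1 (r = 0.86), Ubl4a (0.85) and Ndufb6 (0.84). None of these 9 genes had an adjusted p under 0.05 (limma), and the ranking is a description over 12 livers.

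Upstream of the 10 genes, the Wnt pathway showed no member past the threshold over all genes either. Of 11 measured ligands, R-spondins and release factors, 0 passed (limma) and 4 had an unadjusted p under 0.05, 1 higher and 3 lower. Of all genes, 14.8% had such a p, 7.26% higher and 7.56% lower. Rspo3, the central vein's R-spondin, averaged 84.0 ± 25.0 in 4-HPAA livers and 116 ± 25.5 in controls (SD, n = 6 each), a log2 difference of −0.49 ± 0.20 (limma, unadjusted p = 0.0252, adjusted p = 0.268). 4-HPAA replicates 1, 2, 3 and 5, at 54 to 81, lay below the lowest control at 92. Without 4-HPAA replicate 3 the difference was −0.47.

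The central vein's Wnt ligands were near the low end of the table. Wnt2 stood at 33, 40 and 72 (lowest, median, highest) in 4-HPAA livers and at 16, 35 and 63 in controls, a difference of 0.45 ± 0.35 (limma, adjusted p = 0.582). Wnt9b stood at 6, 13.5 and 35 in 4-HPAA livers and at 7, 19.5 and 30 in controls, a difference of −0.09 ± 0.45 (limma, adjusted p = 0.946). The intervals of both genes include changes in either direction. Wls, which carries Wnt proteins to the cell surface, differed by −0.63 ± 0.21 (limma, adjusted p = 0.206). Wnt5b differed by 0.34 ± 0.11 and Rspo1, at under 30 in every liver, by −1.36 ± 0.40 (limma, adjusted p = 0.2 and 0.184). Without 4-HPAA replicate 3, the lowest liver for Wls, the differences of Wls, Wnt5b and Rspo1 were −0.46, 0.28 and −1.30.

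Of 13 endothelial markers, 12 had negative differences and 4 an unadjusted p under 0.05, all lower (limma), with a median of −0.23, where 7.56% of all genes were lower at that p and 49.8% had a positive difference. Pecam1, an endothelial adhesion molecule, differed by −0.31 ± 0.12 (limma, adjusted p = 0.242). The summed normalised count of the list ran from 5550 to 7511 in 4-HPAA livers and from 6173 to 7476 in controls. Of 12 stellate cell markers all 12 were negative, 6 with an unadjusted p under 0.05, with a median of −0.46 and sums of 6301 to 12284 in 4-HPAA livers and 10279 to 15894 in controls. Reln, a secreted glycoprotein of stellate cells, differed by −0.65 ± 0.14, and the collagen gene Col3a1 by −1.02 ± 0.22 (limma, adjusted p = 0.135 for both). Of 7 central vein endothelial markers, which include Wnt2, Wnt9b and Rspo3, 5 were negative, with sums of 372 to 680 in 4-HPAA livers and 395 to 740 in controls. At an unadjusted p under 0.05 (limma) there were 0 of 11 Kupffer cell, 1 of 7 cholangiocyte (lower) and 1 of 4 lymphocyte markers (higher). Of 10 hepatocyte markers 4 had such a p, 3 higher and 1 lower, where 14.8% of all genes had one. Without 4-HPAA replicate 3, 11 of 13 endothelial and 10 of 12 stellate markers were negative, as were 6084 of all 12720 genes. Genes at 0 in a library are not in the table, so that every measured marker was above 0 says nothing about these cells. The part of these cells in the values of Rspo3, Wls or the pericentral genes was not tested.

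Of 11 receptors and co-receptors, 0 had an unadjusted p under 0.05 (limma), where 14.8% of all genes had one. Lgr4, the R-spondin receptor found across the lobule, differed by 0.01 ± 0.15. Among 22 tested genes of the destruction complex and relay, 1 was higher and 1 lower at an unadjusted p under 0.05, with a median of 0.03. Of all genes, 7.26% were higher and 7.56% lower at that p. Leaving out 4-HPAA replicate 3, 3 were higher and 1 lower, with a median of 0.10, against 0.01 over all genes. Of all 12720 genes, 1342 were then higher and 1148 lower at that p, 19.6% together. Over all 12 livers the higher one was Ctnnb1, beta-catenin itself, which averaged 3200.5 ± 257 in 4-HPAA livers and 2800.3 ± 152 in controls (SD, n = 6 each), a difference of 0.19 ± 0.07 (limma, unadjusted p = 0.0157, adjusted p = 0.236). The lower one was Ppp2r5a, a regulatory subunit of protein phosphatase PP2A, at −0.22 ± 0.08 (limma, adjusted p = 0.216). The scaffold genes Apc and Axin1 differed by 0.00 ± 0.13 and 0.13 ± 0.09, and Tcf7l2, the main TCF factor of liver, by −0.13 ± 0.16 (limma, adjusted p = 0.993, 0.492 and 0.761). Apc differed by 0.11, Lgr4 by 0.14 and Tcf7l2 by −0.0071 without 4-HPAA replicate 3. Of 17 TCF/LEF factors and co-factors, 2 had an unadjusted p under 0.05 over all 12 livers (limma). They were Pygo2, which helps beta-catenin activate transcription, at 0.21 ± 0.08 and Tcf7l1 at −0.35 ± 0.15 (limma, adjusted p = 0.256 and 0.3). Without 4-HPAA replicate 3, 2 were higher and 1 lower at that p, where 19.6% of all genes had one. The co-factor Ep300 then had the smallest p of this list, at 0.35 (limma, unadjusted p = 0.00105, adjusted p = 0.13).

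Notum, a secreted enzyme that inactivates Wnt proteins, averaged 1035 ± 181 in 4-HPAA livers and 859 ± 156 in controls (SD, n = 6 each), a difference of 0.27 ± 0.13 (limma, adjusted p = 0.363). Nkd1, an inhibitor of Dishevelled, differed by 0.18 ± 0.20 and Sp5, a transcription factor induced by beta-catenin, by 0.38 ± 0.32 (limma, adjusted p = 0.721 and 0.615). They differed by 0.096 and 0.14 without 4-HPAA replicate 3. Sp5 stood at 74 in 4-HPAA replicate 3 and at 21 to 30 in the other 4-HPAA livers. Frzb, a secreted Wnt antagonist, was the 1 of 6 measured antagonists with an unadjusted p under 0.05, at −1.09 ± 0.27 (limma, adjusted p = 0.142). Of all genes, 14.8% had such a p.

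Of 23 other pericentral hepatocyte genes, 15 had positive differences, against 49.8% of all genes, and 0 passed (limma), with a median of 0.07. This list also counts Lgr4, a receptor described above that is found across the lobule. At an unadjusted p under 0.05, 3 were higher and 1 lower, against 7.26% and 7.56% of all genes. Cyp1a2, a cytochrome P450 of the pericentral zone that the aryl hydrocarbon receptor also drives, averaged 14283 ± 1968 in 4-HPAA livers and 8706 ± 2686 in controls (SD, n = 6 each). All 4-HPAA livers but replicate 4 exceeded every control, for a difference of 0.76 ± 0.18 (limma, unadjusted p = 0.000991, adjusted p = 0.142). Slc13a3, a carrier of dicarboxylates, differed by 0.67 ± 0.24 and Gulo, the last enzyme of vitamin C synthesis, by 0.38 ± 0.14, while Tnfrsf19 was at −0.62 ± 0.21 (limma, adjusted p = 0.226, 0.232 and 0.211). Cyp2e1, the ethanol-inducible cytochrome P450 of pericentral cells, averaged 260447 ± 27424 in 4-HPAA livers and 250435 ± 46819 in controls (SD, n = 6 each), a difference of 0.07 ± 0.12 (limma, adjusted p = 0.831).

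At the other end of the lobule, 18 of 24 measured periportal genes had positive differences, against 49.8% of all genes, with a median of 0.06, and 0 passed (limma). At an unadjusted p under 0.05, 6 were higher and 2 lower, against 7.26% and 7.56% of all genes. Cyp2f2, a cytochrome P450 that marks periportal cells, averaged 23754 ± 2305 in 4-HPAA livers and 18597 ± 1249 in controls (SD, n = 6 each), a difference of 0.35 ± 0.08 (limma, adjusted p = 0.142). Itih4, a secreted plasma protein, differed by 0.57 ± 0.15, while Alb was at −0.38 ± 0.10 and the lipid droplet protein Hsd17b13 at −0.51 ± 0.10 (limma, adjusted p = 0.161, 0.148 and 0.103). Gls2, the periportal glutaminase that releases the ammonia which Glul recaptures, differed by 0.01 ± 0.08 (limma, adjusted p = 0.956). The difference between the 2 zones was not tested.

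**Figure D5:**
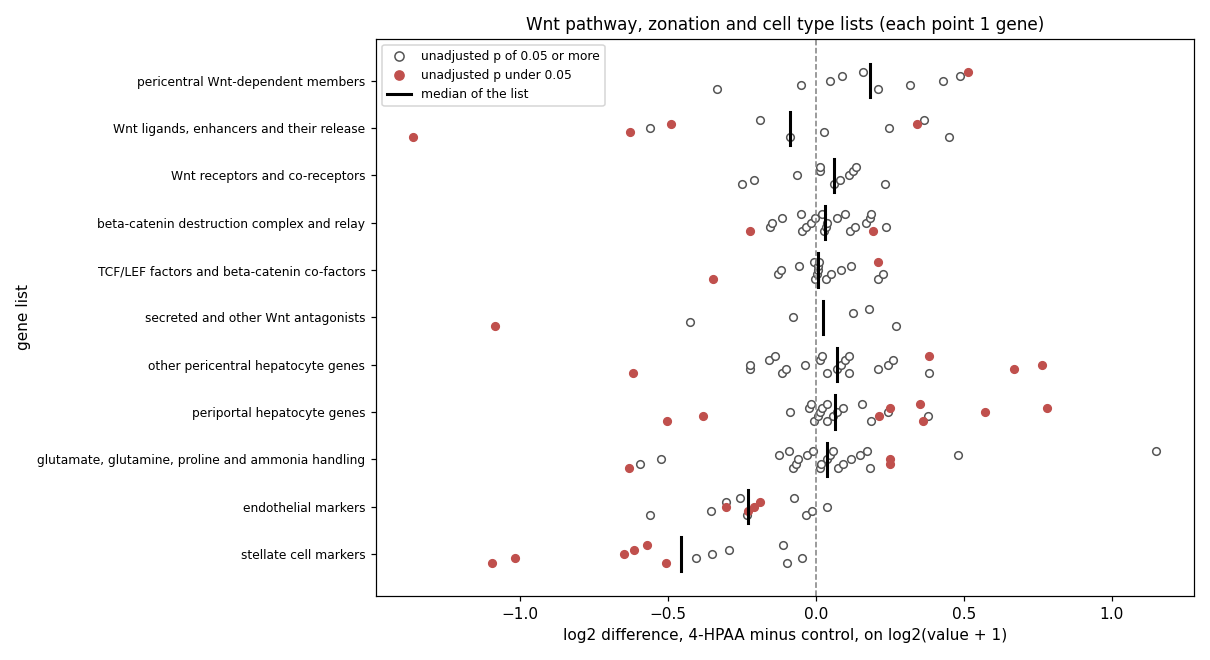
Log2 difference, 4-HPAA minus control, of each tested gene (point) in 11 lists of the Wnt pathway, liver zones, nitrogen handling and marker genes, with filled points at an unadjusted p under 0.05 (limma) and the median of each list as a bar. The pericentral set has its median at 0.18, the endothelial markers at −0.23 and the stellate cell markers at −0.46.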

How the data were processed

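Per the labels' protocols, RNA of flash-frozen liver, purified with an RNeasy kit, was sequenced on a NovaSeq after strand-specific mRNA library preparation (TruSeq). Tools in the submitters' processing notes are STAR, HTSeq, cutadapt, edgeR, DESeq2 1.28.1 and FastQC 0.11.9, with the build GRCm38 and no role for each tool; the annotation is not stated there. The deposited values were handled as a score: whole-number normalised read counts. The values themselves show the scaling and rounding: in the 5 libraries with estimated factors above 1, certain low whole numbers never occur. Factors, 0.849 to 1.13, were estimated from how often each low value occurs. A count model was therefore not used. The smallest value is 2, and genes at 0 in a library are not in the table.

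Of 13267 IDs, 13203 were named by GENCODE M21. The 12720 genes that reached 10 in 6 or more libraries were tested in R 4.3.3 with limma 3.58.1, using its trend and robust options, on log2(value + 1), which understates changes of low genes, 4-HPAA minus control, without covariates, with Benjamini-Hochberg adjustment over all of them. All 10 members passed this filter. Exact permutation tests used every split of the 12 livers into 6 and 6. The fit was tested on simulated data with changes larger than those of the 10 genes and with genes that varied independently. That test does not speak to differences of the size seen here. Members and lists were chosen with earlier results of these data known. Named genes are the members, the 3 genes most like each of Glul, Axin2 and Lgr5, 15 pathway and zone genes, and, in each list described, some of the 4 genes of smallest p. Alternatives covered scalings, filters, pseudocounts, weights, a replicate block and each library left out.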

Additional observations from a re-analysis of the deposited data

Results flagged for a closer look

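In 52 groups of 6 livers, covering the 10 genes, 15 pathway and zone genes and the median of the 10, 5 held 1 liver far from the others by Dixon's criterion, which chance meets in about 1 of 20 groups. Control replicate 5 was the liver in 3 of them. Its Rhbg value was 406, against 154 to 211 in the other controls. Its Rspo3 value was 166, against 92 to 113. Its Nkd1 value was 152, against 98 to 106. 4-HPAA replicate 3 had an Sp5 value of 74, against 21 to 30 in the other 4-HPAA livers. 4-HPAA replicate 6 had a Wnt2 value of 72, against 33 to 44 in the other 4-HPAA livers.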

How the results depend on the processing

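Of the 10 genes, 8 kept the sign of their difference in all 23 alternatives. Oat was at −0.069 with quantile normalization and ranged from −0.024 to 0.13 with 1 library left out, and Lgr5 ranged from −0.15 to 0.066, positive without 4-HPAA replicate 2 or 6 (0.023); the cause was not tested. The median of the 10 was 0.11 with quantile normalization and 0.21 with array weights. The number of the 10 genes with an unadjusted p under 0.05 (limma), 1 over all livers, was 2 with array weights (Slc1a2 and Lhpp; 24% of all genes) and 0 to 4 with 1 library left out. It was 4 without control replicate 5 (12.1% of all genes) and 3 without control replicate 3 (12.7%) or 4-HPAA replicate 6 (16.9%). It was 2 without control replicate 1 (14.5%) or 4-HPAA replicate 1 (10.4%). It was 0 without 4-HPAA replicate 2 (11.5%) or 4 (18.8%) or control replicate 2 (12.2%), 4 (10.8%) or 6 (16%). Over all genes, 139 passed with array weights, where 3050 had an unadjusted p under 0.05, and 0 to 193 passed with 1 library left out: 193 without 4-HPAA replicate 4 and 5 without control replicate 1. With a replicate block, 11 genes passed, and 4 of the 10 had an unadjusted p under 0.05 (Axin2, Rhbg, Tbx3 and Rnf43), as did 16.1% of all genes. The labels do not say that the numbers pair the mice, and deviations of same-numbered livers correlated at −0.183 to 0.282, with 2 of 6 livers closest to their own number. Depth limits genes of low values, such as Wnt2, Wnt9b and Sp5.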

Other observations

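Of 25 measured genes of glutamate, glutamine, proline and ammonia handling outside the 10, 15 had positive differences (4-HPAA minus control), against 49.8% of all genes. Their median was 0.04, and 0 passed over all genes (limma). At an unadjusted p under 0.05, 2 were higher and 1 lower, against 7.26% and 7.56% of all genes. Nags, which makes the activator of the urea cycle's first enzyme, differed by 0.25 ± 0.10, and Slc25a15, the mitochondrial ornithine carrier, by 0.25 ± 0.12 (limma, adjusted p = 0.255 and 0.336). Aldh18a1, which starts proline and ornithine synthesis from glutamate, was at −0.63 ± 0.24, from values of 9 to 30 over the 12 livers (limma, adjusted p = 0.239).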
